A study of Mus musculus with 2 samples.

Results

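NRF2 target genes and enzymes of the glutathione and thioredoxin systems were followed in mouse liver after injury of the kidneys. The genes were listed by name: Gclc, Gclm, Gsr, Srxn1, Txnrd1, Nqo1, Hmox1, Gpx1, Sod2 and Prdx1. A gene was measured where the platform annotation of an Affymetrix probe set named it and no other gene. This gave values for 9 of the 10 genes, of 13117 genes measured in all. Prdx1, a peroxiredoxin that reduces hydrogen peroxide, is given no value because each of its 5 probe sets is annotated to a further gene, Gm21399, as well. The other 9 genes are read by 20 probe sets.

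Livers came from male C57BL/6 wild-type mice, 8 weeks old. In the group with renal ischaemia-reperfusion injury (IRI), both kidneys underwent warm ischaemia for 30 minutes, and the control group had sham surgery. Mice were killed after 24 hours, and liver of 3 mice per group, 100 mg, was combined into 1 pool that was read on 1 array. Each group is therefore a single pooled sample, the spread between mice is unknown, no test or p-value could be given, and every difference below describes these 2 pools.

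NRF2, encoded by Nfe2l2, is a transcription factor that KEAP1 holds in the cytosol and marks for degradation. Oxidants and electrophiles modify KEAP1, after which NRF2 accumulates, pairs with a small MAF protein and binds antioxidant response elements near its target genes, sites at which BACH1 acts as a repressor. Its targets make and reduce glutathione and thioredoxin, detoxify quinones and break down haem. In the liver, hepatocytes hold much of the body's glutathione and are a main site of this response.

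The data were split within the set. Srxn1 and Gsr, which encode sulfiredoxin 1 and glutathione reductase, had signals 2.77-fold and 2.71-fold higher in the IRI pool. Gclm, the modifier subunit of the enzyme that starts glutathione synthesis, was 2.48-fold lower. Hmox1 and Txnrd1 were 1.78-fold and 1.70-fold higher, Sod2 1.32-fold higher, and Gclc, Gpx1 and Nqo1 differed by at most 1.17-fold. At least 2-fold differences were thus seen for 2 of 9 genes on the higher side (22.2%) and 1 of 9 on the lower side (11.1%), against 8.71% and 9.59% of all 13117 genes. With 9 genes, these shares rest on single genes and do not set the group apart from the background. The median log2 difference was 0.40 over the 9 genes and -0.01 over all genes, and 5 of the 9 genes were higher and 4 lower. The median of the 9 was 0.12 with bacterial hybridisation controls on the arrays as the reference. It was 0.13 when each gene was read by its least different probe set, which left no gene 2-fold higher. Without probe sets ending in _x_at, _s_at or _a_at, Txnrd1 had no value, and the median of the remaining genes was 0.15.

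Differences are of log2 values, taken after 16 was added to each signal, as IRI minus sham, and folds are on that scale. Each gene is given by its brightest probe set unless stated. The median signal was 257 on the sham array and 254 on the other, so a signal near those values is dim. Quartiles of all genes lay at -0.45 and 0.42. Over 5028 genes with several probe sets, the log2 differences of 1 gene's probe sets had an SD of 0.72, which is a measure of error between probe sets and not between mice. All 18 bacterial hybridisation controls were higher on the IRI array, with a median log2 difference of 0.28. Taken as the reference, these controls change the numbers of genes past 2-fold from 1143 higher and 1258 lower to 756 and 2016, and lower each difference given here by 0.28.

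**Figure D1:**
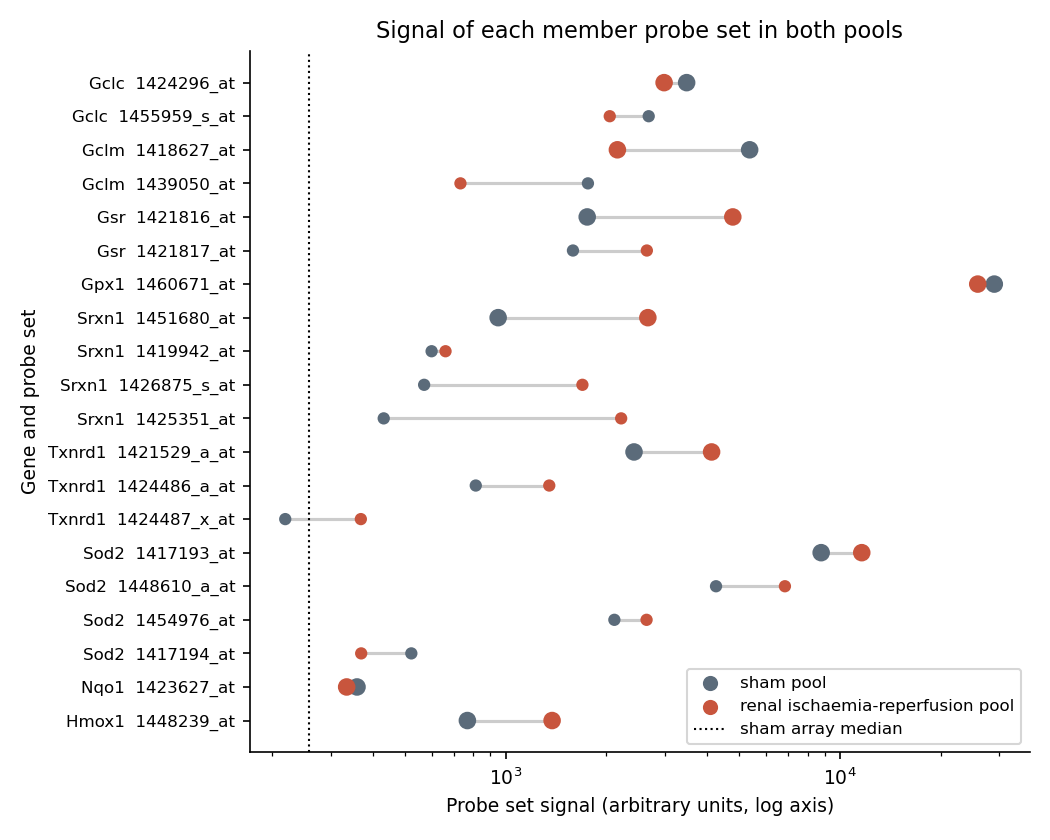
Signal of all 20 probe sets of the 9 genes on a log axis in the sham pool (grey) and the IRI pool (red), 1 array each, with large points for the brightest probe set of a gene and a dotted line at the sham array median of 257. Gpx1 lies farthest right, Nqo1 is dim in both pools, and Gclm is the gene with the sham pool far to the right of the other pool.

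The liver identity of both pools was checked by hepatocyte markers, and all 7 listed were above the array median in both. Albumin (Alb) had signals of 43573 (sham) and 72494 (IRI), and Cps1, the first urea cycle enzyme, 33265 and 15307. Other cell types also contribute RNA to whole liver, and fewer cells of a type cannot be told apart from less RNA per cell. Of 8 pancreatic acinar markers measured, all were higher in the IRI pool, 7 of them at least 2-fold, and their summed signal went from 5197 to 13766. They ranged from Cela1 (1977 and 2531) to Cpa1, which was dim in the sham pool (18.5 and 916.9, a bound of 3.42-fold against the array median). Of 6 neutrophil markers measured, 2 were at least 2-fold higher, and their sum went from 4114 to 6150. S100a8 was dim in the sham pool (45.6 and 1407, at least 5.21-fold higher against the array median), and Elane had signals of 1384 and 1016. Bile duct markers had 3 measured members, Sox9, Krt19 and Epcam, all at least 2-fold higher as read, with a sum of 572 and 2421. Krt19 and Epcam were dim in the sham pool, with bounds against the array median of 1.93-fold and 4.38-fold. A 2-fold difference is thus not secured for Krt19, and the probe set of Epcam can cross-hybridise. Krt7 and Cftr were under the array median in both pools. Endothelial markers had a median of -0.01 over 7 genes, from Clec4g (2117 and 1011) to Lyve1 (327 and 2740), and their sum went from 6690 to 7524. Stellate cell markers were all lower in the 5 genes measured, from Lrat (347 and 128, the latter under the array median) to Des (482 and 366), with a sum of 4203 and 2865. Kidney tubule markers went from Kap (989 and 676) to Aqp2 (390.4 and 660.2) and erythroid markers from Alas2 (2828 and 1927) to Hba-a1 (289 and 451), none of them past 2-fold. No marker was listed at 0. The part of these other cells in the differences below was not tested.

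NRF2 with a small MAF protein recognises the antioxidant response element, whose core TGACNNNGC, with N for any base, was searched on both strands of the 250 bases before each start site in RefSeq (GRCm38.p6). The form TGANTCAGC, which joins a site for AP-1 to the same end and equals the core where its N is C, was searched too. Of 32851 such windows in the table, 10.2% held the core, 1.02% the joined form and 10.7% either. Of the 10 listed genes, 7 have a window in the table and 4 held a match: Srxn1, Gclm, Txnrd1 and Prdx1. Counted by window, as for the background, 4 of 9 held a match, because Txnrd1 has 3 windows. The windows of Srxn1 and Gclm are shown because these genes lie at opposite ends of the set. Srxn1 is on the plus strand at chr2:152105274-152105523 and Gclm on the plus strand at chr3:122245307-122245556, each written 5′ to 3′ and ending at the base before the start site, with the match in capitals.
Srxn1: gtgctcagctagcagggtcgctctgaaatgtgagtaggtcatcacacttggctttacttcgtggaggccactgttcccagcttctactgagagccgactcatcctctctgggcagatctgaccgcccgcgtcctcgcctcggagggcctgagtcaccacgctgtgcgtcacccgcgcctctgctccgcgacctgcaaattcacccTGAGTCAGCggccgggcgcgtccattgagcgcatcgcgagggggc
Gclm: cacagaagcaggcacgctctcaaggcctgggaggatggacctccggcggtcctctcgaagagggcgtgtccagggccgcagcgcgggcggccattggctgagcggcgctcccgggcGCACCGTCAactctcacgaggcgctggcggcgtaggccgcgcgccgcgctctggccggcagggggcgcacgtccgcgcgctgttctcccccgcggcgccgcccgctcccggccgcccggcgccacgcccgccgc
The match of Srxn1 is the joined form and lies 45 to 37 bases before the start site, in the direction of the gene. The match of Gclm is the core on the opposite strand, 134 to 126 bases before the start site. For Txnrd1, 1 of 3 start sites had a match, the core on the opposite strand at 92 to 84 bases before it. For Prdx1, which has no value here, a match on the opposite strand at 133 to 125 bases fits both forms. They are shown with 10 bases on each side.
Txnrd1: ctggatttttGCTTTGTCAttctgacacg
Prdx1: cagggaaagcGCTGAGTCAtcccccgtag
Nqo1, Gpx1 and Sod2 had no match in their windows, which says only that these letters do not occur there. Genes with a match were thus found with higher (Srxn1, Txnrd1) and with lower (Gclm) signal. A match is a description of letters and not a measured binding site.

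Glutathione synthesis opens with glutamate-cysteine ligase, a dimer of the catalytic subunit GCLC and the modifier subunit GCLM. Both subunits are classical NRF2 targets. Gclc had a signal of 3477 (sham) and 2977 (IRI) by its brightest probe set, and 2677 and 2047 by the other. Both probe sets of Gclc were slightly lower in the IRI pool, with log2 differences of -0.22 and -0.38, inside the quartiles of all genes. Gclm had signals of 5367 and 2158 by its brightest probe set and 1762 and 732 by the other. Its log2 differences of -1.31 and -1.25 lay close together, and 6.4% of all genes had a difference as low or lower than the first. The catalytic and the modifier subunit therefore differed unequally between the pools, by 1.09 on the log2 scale, a gap that a single scaling factor for an array leaves almost as it is.

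Glutathione reductase, encoded by Gsr, returns oxidised glutathione to its reduced form with NADPH. Gsr had signals of 1753 (sham) and 4779 (IRI) by its brightest probe set, a log2 difference of 1.44. The other probe set gave 1589 and 2643, a difference of 0.73. Both were higher in the IRI pool, by 2.71-fold and 1.66-fold, and only the first passed 2-fold. These 2 values are not limits on the size, because they leave out the scaling and the spread between mice. Glutathione peroxidase 1, encoded by Gpx1, is a selenoprotein that spends glutathione to reduce hydrogen peroxide. Its single probe set was among the bright ones, with signals of 28956 and 25836 and a log2 difference of -0.16. The highest signals were 55427 on the sham array and 85966 on the other, so small differences of bright genes depend on the scaling, and by quantile normalization Gpx1 stood at -0.49.

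Srxn1 and Txnrd1 serve the thioredoxin and peroxiredoxin branch. Sulfiredoxin 1 repairs peroxiredoxins whose cysteine has been overoxidised, and thioredoxin reductase 1 is the NADPH-dependent selenoprotein that keeps cytosolic thioredoxin reduced. Srxn1 had signals of 949 and 2662 (sham and IRI) by its brightest probe set, a log2 difference of 1.47. A further probe set gave 431 and 2215 (2.32), and one that can cross-hybridise gave 570 and 1696 (1.55). The remaining probe set gave 600.0 and 660 (0.13). Thus 3 of the 4 probe sets of Srxn1 were at least 2-fold higher, and 1 was nearly level. Txnrd1 had signals of 2420 and 4129, 813 and 1350, and 219 and 368 by its 3 probe sets, the last being under the array median in the sham pool. The first and second probe sets of Txnrd1 had log2 differences of 0.77 and 0.72, higher by a like amount and below 2-fold, and the dim one was at least 1.41-fold higher against the array median.

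Sod2 encodes the manganese superoxide dismutase of mitochondria, a gene that inflammatory signals are known to induce. Sod2 had signals of 8785 (sham) and 11619 (IRI), a log2 difference of 0.40. Its other probe sets gave 4258 and 6844 (0.68), 2114 and 2638 (0.32), and 522 and 369 (-0.48). The dimmest of the 4 thus went the other way, and Sod2 was the only one of 6 genes with more than 1 probe set whose probe sets differed in sign.

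Nqo1 encodes a quinone reductase and is widely used to read NRF2 activity. Nqo1 had signals of 359 (sham) and 334 (IRI), a log2 difference of -0.10 by its single probe set. Both signals lay near the array medians, so a change could be understated. Hmox1 encodes haem oxygenase 1, which opens the haem ring and releases iron, and which macrophages make as well as hepatocytes. Hmox1 had signals of 768 and 1376 by its single probe set, a log2 difference of 0.83 that is short of 2-fold. Markers of Kupffer cells and other macrophages stood beside it at a median of -0.43. Of these 8 markers 6 were lower and 2 higher, from Cd5l (2004 and 664) to Cd68 (577 and 802), and their summed signal went from 10692 to 7496.

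**Figure D2:**
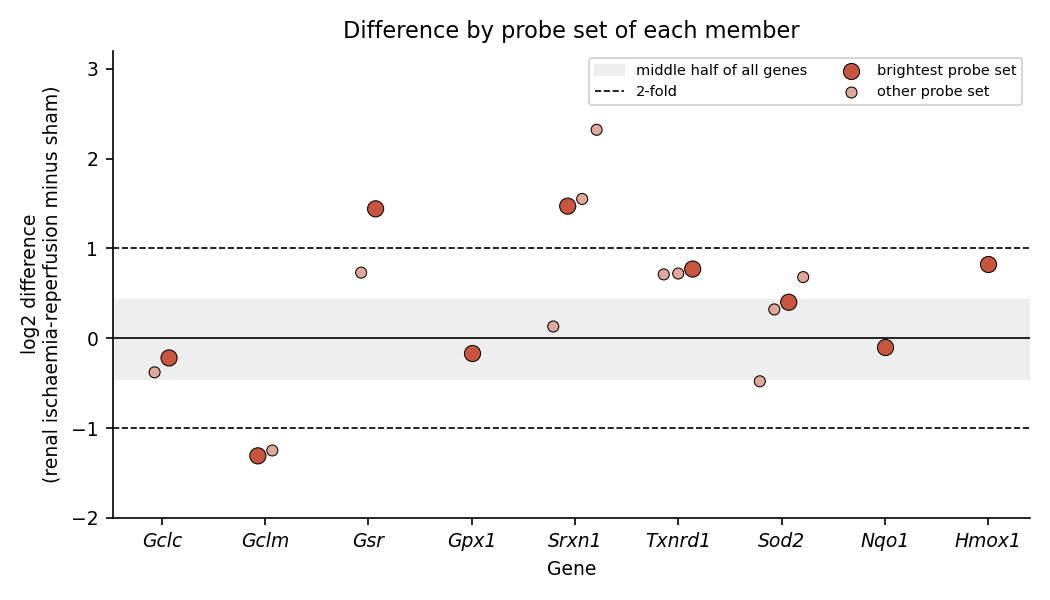
The log2 difference (IRI minus sham) of each probe set by gene, with the brightest probe set of a gene as a large point, dashed lines at 2-fold and a grey band over the quartiles of all genes at -0.45 and 0.42. The 2 probe sets of Gclm lie close together, those of Srxn1 range from 0.13 to 2.32, and those of Sod2 lie on both sides of 0.

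The regulators of the response were read next. Nfe2l2, which encodes NRF2 itself, had signals of 1845 (sham) and 911 (IRI) by its brightest probe set, a log2 difference of -1.01. Its other probe set went from 16.3 to 1394, at least 5.17-fold higher against the array median. The 2 probe sets of Nfe2l2 therefore gave opposite directions, and no direction is given for the gene. Keap1 had signals of 1984 and 1761 (-0.17) and, by its other probe set, 715 and 938 (0.38). Bach1 had signals of 1482 and 962 (-0.62) and, by its other probe set, 308 and 312 (0.02). Among the 9 measured genes of this list, Mafk, a small MAF partner, was the highest (556 and 1068, log2 difference 0.92), followed by Sqstm1, an autophagy receptor that binds KEAP1 and is itself an NRF2 target (7925 and 12160, 0.62). Apart from Nfe2l2, none of these genes differed by 2-fold, and the median was -0.06. The brightest probe set of Nfe2l2 lay at the 2-fold line itself (-0.99 when differences were centred on their median), and the mean of its probe sets was beyond 2-fold on the higher side.

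Of 11 measured genes of glutathione supply and turnover, 1 was at least 2-fold higher and 4 lower, with a median of -0.50. Cth and Cbs turn homocysteine into cysteine. Cth had signals of 10738 and 3038 (log2 difference -1.82), and Cbs 4314 and 1455 (-1.56) by a probe set open to cross-hybridisation. Hagh, the glyoxalase II that frees glutathione from its lactoyl conjugate, had signals of 9708 and 3103 (-1.64), lower by all 3 probe sets. Chac2, a glutathione-degrading cyclotransferase, went from 1072 to 20.0, at least 4.03-fold lower against the array median. Slc3a2, the heavy chain shared by several amino acid transporters, was the highest member (1493 and 3838, 1.35), and Chac1, which also degrades glutathione, stood at 0.95 and Oplah at 0.31. Gss, the enzyme of the last step of synthesis, had signals of 1998 and 1418 (-0.49), read by a potentially cross-hybridising probe set. Its other probe set gave 1699 and 1494 (-0.18), inside the quartiles of all genes. Slc7a11, the cystine transporter, was under the array median in both pools (150.3 and 192).

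Of the other peroxidases, catalase (Cat), which breaks down hydrogen peroxide in peroxisomes, stood apart. Cat had signals of 30652 (sham) and 5004 (IRI), a log2 difference of -2.61, and its other probe set stood at -2.28. Gpx3, the secreted plasma peroxidase, went from 224 to 1596, at least 5.9-fold higher against the array median. The other 5 measured peroxidases ranged from Prdx2 (-0.25) through Prdx4 (-0.09) to Gpx4 (0.14), so that Gpx1 with -0.16 lay among them. Glrx, a glutaredoxin that uses glutathione to reduce mixed disulphides, was the highest of 17 other dismutase and thioredoxin genes. Glrx had signals of 1238 and 8568 (2.77) and by its other probe set 832 and 7705 (3.19). The lowest was Msrb1, a selenoprotein that repairs oxidised methionine (10898 and 3398, -1.68), followed by Ccs (-0.95) and Txnrd2, the mitochondrial thioredoxin reductase (-0.75). By their brightest probe sets, Glrx and Msrb1 alone of these 17 passed 2-fold, and the median was -0.06. Txnl1 (0.72) and Glrx3 (0.62) were the next highest. Txnrd3 stood at -0.25 by its brightest probe set, but another gave 261 (sham, near the array median) and 949 (IRI), a log2 difference of 1.80. Past 2-fold in either direction were 18.3% of all genes.

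Gsr and Txnrd1 draw on NADPH, and Nqo1 on NADH or NADPH. Of 9 measured genes of NADPH supply, Pgd, of the pentose phosphate pathway, was the only one on the higher side of 2-fold. Its signals were 1061 and 2395 (log2 difference 1.16) with all 4 probe sets higher. Each of the 4 ends in _a_at or _x_at, so Pgd has no value without such probe sets. With the hybridisation controls as the reference, Pgd stood at 0.88, short of 2-fold. Idh1, the cytosolic isocitrate dehydrogenase, had signals of 10702 and 4255 (-1.33), and Nnt, the mitochondrial transhydrogenase, 1741 and 855 (-1.01). Both probe sets of Idh1 end in _s_at and can cross-hybridise. Me1, malic enzyme, had signals of 9745 and 3795 (-1.36), but 2000 and 2158 by its other probe set. Thus 3 of the 9 genes were at least 2-fold lower, and 1 gene was without probe sets ending in _x_at, _s_at or _a_at. The median of the 9 was -0.74. On the higher side of 2-fold lay 8.71% of all genes, and on the lower side 9.59%.

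Among 19 further genes known as NRF2 targets in mouse liver, 8 were at least 2-fold lower and none at least 2-fold higher. Of all genes, 9.59% were at least 2-fold lower and 8.71% higher. The list, chosen with earlier results of these data known, had a median of -0.55. The lowest were Gsta3, a glutathione S-transferase (14222 and 2578, log2 difference -2.46), Aox1, an aldehyde oxidase (2959 and 652, -2.16), and Ugdh, which makes UDP-glucuronate (6565 and 1786, -1.87). The highest were Fth1, the ferritin heavy chain (29777 and 40593, 0.45), Mgst1 (0.41) and Akr1b8 (0.41). By quantile normalization Fth1 stood at 0.01, Mgst1 at -0.06 and Akr1b8 at 0.42. Of 8 genes of haem handling, Alas1, the first enzyme of haem synthesis, was the highest (10034 and 20446, 1.03, but -0.21 by its other probe set). The haem-binding plasma protein haemopexin (Hpx, 40781 and 66891, 0.71) and Slc48a1 (0.13) followed. Alas1 stood at 0.81, short of 2-fold, and Hpx at 0.21 by quantile normalization. Blvrb, a biliverdin reductase, was the lowest (-0.71), while Hmox2, the constitutive haem oxygenase, stood at -0.07 and Blvra at -0.03, beside Hmox1 at 0.83. The median of this list was 0.03.

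Over all 7 lists of related genes, 80 genes were measured, of which 5 (6.25%) had higher and 18 (22.5%) lower signals by 2-fold or more, against 8.71% and 9.59% of all genes. Their median log2 difference was -0.16. With the hybridisation controls as the reference, 3 (3.75%) were higher and 23 (28.8%) lower by that measure, against 5.76% and 15.4% of all genes. The lists were chosen with earlier results of these data known. Their shares therefore describe the listed genes only and do not set them apart from the background.

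**Figure D3:**
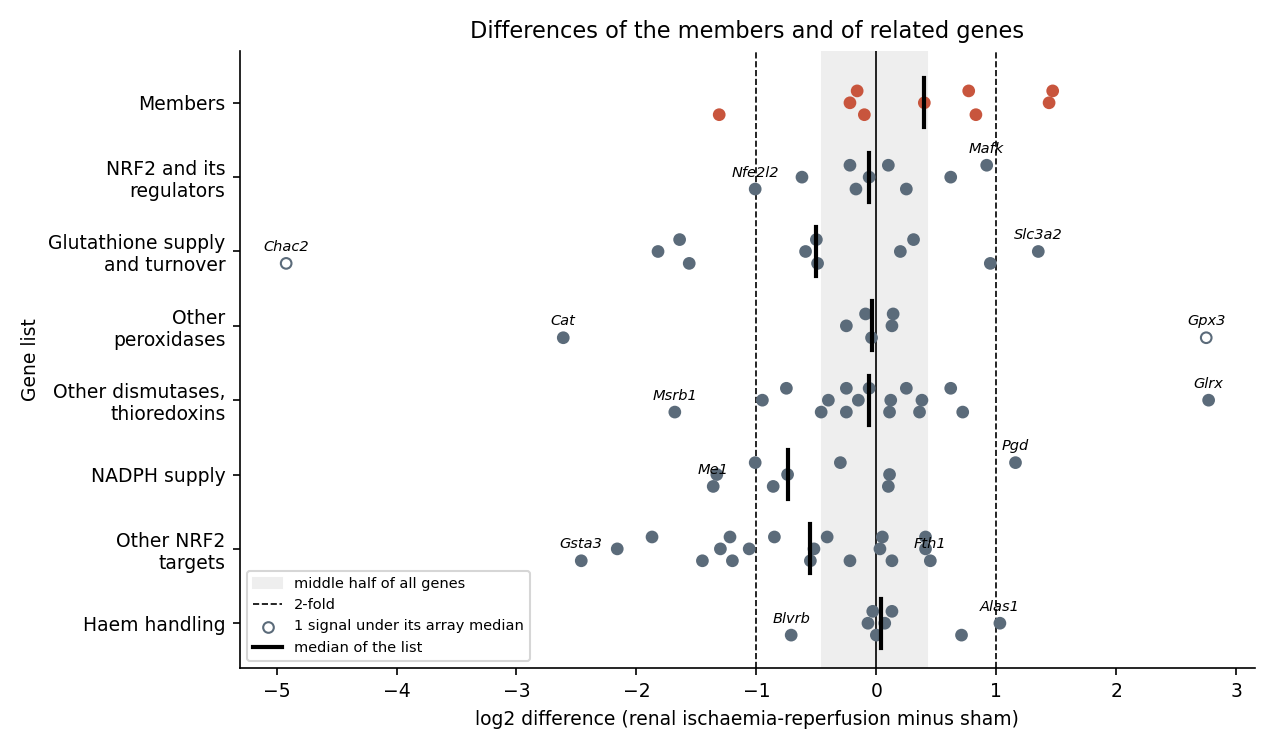
The log2 difference (IRI minus sham) of each measured gene of the 9-gene set (red) and of 7 lists of related genes (grey), with a bar at the median of each list, dashed lines at 2-fold and a grey band over the quartiles of all genes. Open circles are genes with 1 signal under its array median, whose size is uncertain, and the medians run from -0.74 for NADPH supply to 0.40 for the set itself.

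**Figure D4:**
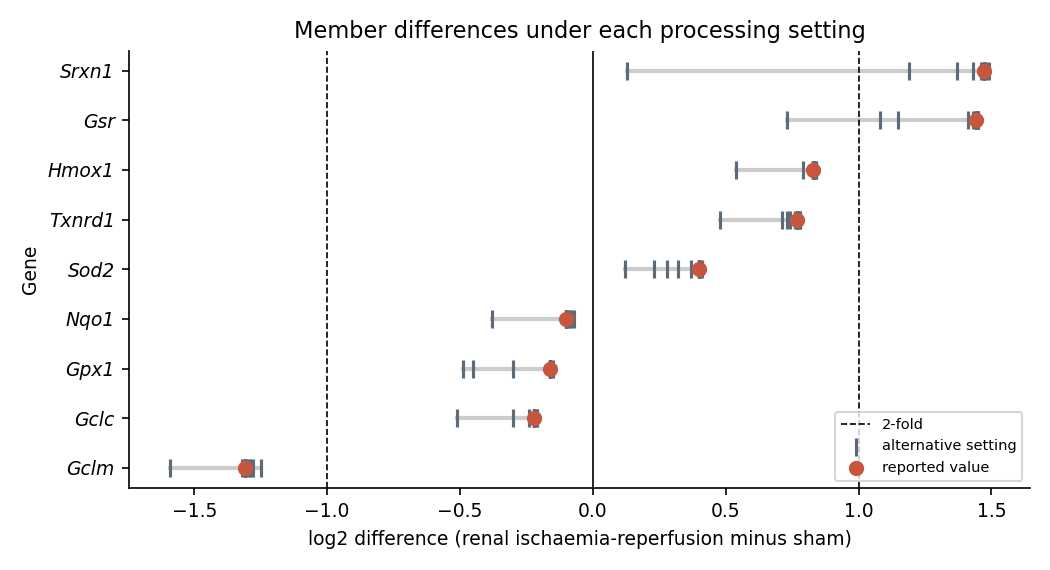
The log2 difference of each of the 9 genes as reported (red) and under up to 13 other processing settings (grey ticks), with dashed lines at 2-fold. Each gene kept its sign, which pseudocounts and filters cannot reverse for signals above the array medians. Gclm lay beyond 2-fold under all 13, and Gsr and Srxn1 under 12 of 13.

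The direction of all 9 genes was the same under every other processing setting that gave them a value. Much of this was fixed in advance, because pseudocounts and filters cannot reverse signals above the array medians. Gclc, for one, stood at -0.22 under all of these. Nqo1, Hmox1 and Gpx1 have 1 probe set each, so the choice of probe set could not act on them. Gclm ranged from -1.59 to -1.25 over these settings, Gsr from 0.73 to 1.45 and Srxn1 from 0.13 to 1.49. The low ends of Gsr and Srxn1 come from taking each gene's least different probe set, and both were beyond 2-fold otherwise. Txnrd1 ranged from 0.48 to 0.78, Hmox1 from 0.54 to 0.84 and Sod2 from 0.12 to 0.41.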

How the data were processed

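The authors deposited a microarray intensity for each Affymetrix probe set on a linear scale, 1 array per pool, from biotin-labelled cRNA made of 6 ug total RNA, per the labels' protocols. On both arrays the mean without the outer 2% at either end was 500.0, which shows a scaling to 1 target before deposit. The sources used here do not name the summarising software. Samples were grouped by their treatment label.

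Of 45037 probe sets that are not controls, 34945 had 1 gene in the platform's annotation, 932 several and 9160 none. Symbols of 34741 were updated through their Entrez ID. Probe sets with the brighter signal at or above its array median entered, and the probe set with the greatest average log2 signal stood for its gene. The pseudocount was 16. The number of arrays limits the precision. Where 1 of the signals was under its array median, the fold is bounded with that median in its place. Probe sets ending in _x_at or _s_at can cross-hybridise. Named were all listed genes, Nfe2l2, Keap1 and Bach1, up to 3 highest and 3 lowest of each related list, and the highest and lowest marker of each cell type. Genes beyond this rule (Cbs, Gss, Slc7a11, Txnrd3, Krt19, Krt7, Cftr) were chosen after their values were seen. The genes and lists were chosen with earlier results of these data known. The steps, run with Python 3.11.15, pandas 2.3.3 and statsmodels 0.14.6, were tested on simulated data.

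The alternatives were pseudocounts of 1 and 64, 4 filters or treatments of dim signals, 4 scalings (the loess span was 0.3), 3 choices of probe sets and thresholds of 1.5-fold and 3-fold.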

Additional observations from a re-analysis of the deposited data

How the results depend on the processing

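No paired analysis was possible because each group is 1 pool. Over the 13 alternatives no member changed direction, although pseudocounts and filters cannot reverse signals above the array medians. The count of members at least 2-fold higher, 2 as reported, was 0 when each gene was read by its least different probe set, where Gsr stood at 0.73 and Srxn1 at 0.13. At 1.5-fold it was 4 and at 3-fold 0. The count of members lower, 1 as reported, was 0 at 3-fold. The median of the members ranged from 0.12, with the hybridisation controls as the reference, to 0.58, with a filter at the 75th percentile that leaves out Nqo1. Of the related genes, 5 of 80 higher and 18 lower became 3 and 23 with those controls as the reference, and 3 and 13 of 57 without suffixed probe sets. Nfe2l2 was no longer at least 2-fold lower with a pseudocount of 64, with centring, by quantile normalization or by the mean of its probe sets.

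Over all genes, the counts of 1143 higher and 1258 lower became 682 and 797 with the filter at the 75th percentile, 563 and 676 with both signals at or above their medians, and 756 and 2016 with the hybridisation controls as the reference. They became 2449 and 2536 at 1.5-fold, and 472 and 589 at 3-fold. With dim signals raised to the array median, 733 genes were higher. The filters test fewer genes or remove dim signals, and the thresholds act by construction. Why the controls were brighter on 1 array was not tested. Without probe sets ending in _x_at, _s_at or _a_at, Txnrd1 had no value. With 1 array per group, leaving out a replicate is not possible. Signals near the array median, such as those of Nqo1, limit what can be seen.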
